A study of Homo sapiens with 4 samples.

Results

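Transcripts of 9 genes that build and control the hypoxia-inducible factors (HIF) were measured by RNA-seq in Jurkat cells carrying a short hairpin RNA against SOX4. The genes were taken by symbol, as parts of the HIF pathway: the alpha subunits HIF1A, EPAS1 and HIF3A, their partner ARNT, the oxygen-sensing hydroxylases EGLN1, EGLN2, EGLN3 and HIF1AN, and VHL. All 9 were found, each as a single row, among the 64252 gene IDs of the deposited count table. Jurkat is an established cell line from a human T-ALL, an acute leukemia of T cell precursors. The 2 sh-SOX4 libraries, from cells with the hairpin against the transcription factor SOX4, were set against 2 sh-Scb libraries, from the same line with a scrambled hairpin. Both groups therefore carry a hairpin, and the sources used here do not say which stretch of SOX4 is targeted.

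HIF is a dimer of an oxygen-labile alpha subunit and the stable subunit ARNT, and it switches on genes of glycolysis, red cell and vessel growth and cell survival when oxygen is short. In oxygenated cells the EGLN enzymes, which need oxygen, iron and 2-oxoglutarate, hydroxylate prolines of the alpha subunits. VHL, the substrate receptor of a ubiquitin ligase, then binds them for degradation, while HIF1AN hydroxylates an asparagine and keeps coactivators away. Most of this control acts on protein, so the transcript levels below describe one layer of the pathway, and neither protein nor oxygen was measured here.

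In sh-SOX4 cells the transcripts of both expressed alpha subunits, of ARNT and of the hydroxylases EGLN1 and EGLN3 fell, and that of VHL rose. HIF1A fell to 53.2% of the sh-Scb level and EGLN1 to 59.9%. The calls of EPAS1 and EGLN3 were each lost when 1 library was left out. EGLN2 was called higher, but this call did not hold once reads of an overlapping gene were added to it. HIF1AN did not pass the test and HIF3A was at the limit of detection.

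The libraries summed to 32872606 and 30830081 counts in sh-SOX4 and to 36636219 and 29093287 in sh-Scb. Levels are given in CPM, counts scaled to a common library size, after TMM normalization, which assumes that most genes are unchanged, and a gene was called at an adjusted p under 0.05. SOX4 itself was at 191 and 199 CPM in the sh-SOX4 libraries, against 271 and 277 CPM in the sh-Scb libraries, and 71.1% of its control level remained. All 10 genes listed as T cell markers passed the filter, of which 6 were called higher and 1, CD247, lower in sh-SOX4. The share called was 70%, against 44.1% of all tested IDs. The 6 include the transcription factor TAL1, at 358 and 368 CPM in sh-SOX4 and 225 and 225 CPM in sh-Scb. The 10 genes summed to 1911 and 2019 CPM in sh-SOX4 and 1628 and 1586 CPM in sh-Scb. TRBC1, which did not pass, differed within a group, at 65.2 and 142 CPM in sh-SOX4 and 154 and 115 CPM in sh-Scb. Of the endothelial markers, which were read because EPAS1 is known from endothelium, CDH5 had no count in any library. The 6 endothelial markers summed to 140 and 136 CPM in sh-SOX4 and 115 and 107 CPM in sh-Scb, nearly all of it PECAM1, which T cells also express.

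Promoter stretches of the alpha subunits and the EGLN paralogs are shown because they let the 2 expressed alpha subunits and the 3 EGLN paralogs be compared for HIF motifs. They are taken from RefSeq on GRCh38.p14, read 5′ to 3′ on the gene's strand, with capitals marking ACGTG or GCGTG on either strand, the 2 core forms that HIF dimers bind. For HIF1A (chr14:61695263-61695502, plus strand), EPAS1 (chr2:46297157-46297396, plus strand) and EGLN3 (chr14:33951085-33951324, minus strand) 240 bases are given. For EGLN1 (chr1:231422288-231422312, minus strand) and EGLN2 (chr19:40799130-40799159, plus strand) a short stretch around the match is given.
HIF1A: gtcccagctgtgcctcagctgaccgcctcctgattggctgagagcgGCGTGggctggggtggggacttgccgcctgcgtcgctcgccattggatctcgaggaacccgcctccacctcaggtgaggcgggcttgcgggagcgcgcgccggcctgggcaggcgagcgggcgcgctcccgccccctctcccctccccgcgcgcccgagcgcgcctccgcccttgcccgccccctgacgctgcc
EPAS1: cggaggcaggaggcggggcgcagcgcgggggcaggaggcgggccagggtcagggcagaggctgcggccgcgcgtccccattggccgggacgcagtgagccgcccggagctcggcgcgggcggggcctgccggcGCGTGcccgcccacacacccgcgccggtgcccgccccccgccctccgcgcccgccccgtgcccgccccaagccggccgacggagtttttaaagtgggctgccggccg
EGLN3: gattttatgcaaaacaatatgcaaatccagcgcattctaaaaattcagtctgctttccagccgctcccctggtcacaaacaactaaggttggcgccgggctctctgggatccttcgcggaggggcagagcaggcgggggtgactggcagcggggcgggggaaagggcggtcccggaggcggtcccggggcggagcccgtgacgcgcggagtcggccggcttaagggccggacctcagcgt
EGLN1: gggccgtggtgtACGTGcagagcgc
EGLN2: gcggggcgcggtCACGTGcccaccgggcga

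The EGLN1 match began 13 bases before the RefSeq start, inside what GENCODE release 29 annotates as exon of a longer transcript. That of EGLN2 was the palindrome CACGTG, which reads ACGTG on both strands and began 49 bases before the start. HIF1A and EPAS1 each held a GCGTG, 204 and 117 bases before their starts. EGLN3 held neither form in its window of 250 bases, although it is known as a HIF-induced gene, and these letters say nothing about more distant sequence. RefSeq windows were matched for 8 of the 9 genes, with no entry for VHL, and 5 of these 8 held either form in at least 1 window. By window this was 5 of 12, or 41.7%, against 43.2% of all 35116 windows of that length, so a match was about as frequent as in promoters at large. EGLN1 and EGLN2 both held ACGTG, and their results are given below.

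Of the 9 genes, 8 passed the filter on low counts and were tested. Calls are to be read against a large background: by the quasi-likelihood test of edgeR, adjusted after Benjamini-Hochberg, 44.1% of 19897 tested IDs were called, 20.9% lower and 23.2% higher in sh-SOX4. By number 52.5% of these calls were higher, which became 40.8% when library totals replaced TMM. Among the 8 genes tested, 5 were called lower and 2 higher. Their median log2 fold change was -0.44, against -0.01 over all tested IDs. The 2 groups of libraries did not overlap in CPM for any of the 8, with 6 lower and 2 higher in sh-SOX4. With so few libraries this also held for 72.9% of all tested IDs, 36.6% lower and 36.3% higher. No label states separate cultures for the replicates, so every p-value reflects only how these libraries varied, possibly for technical reasons.

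**Figure D1:**
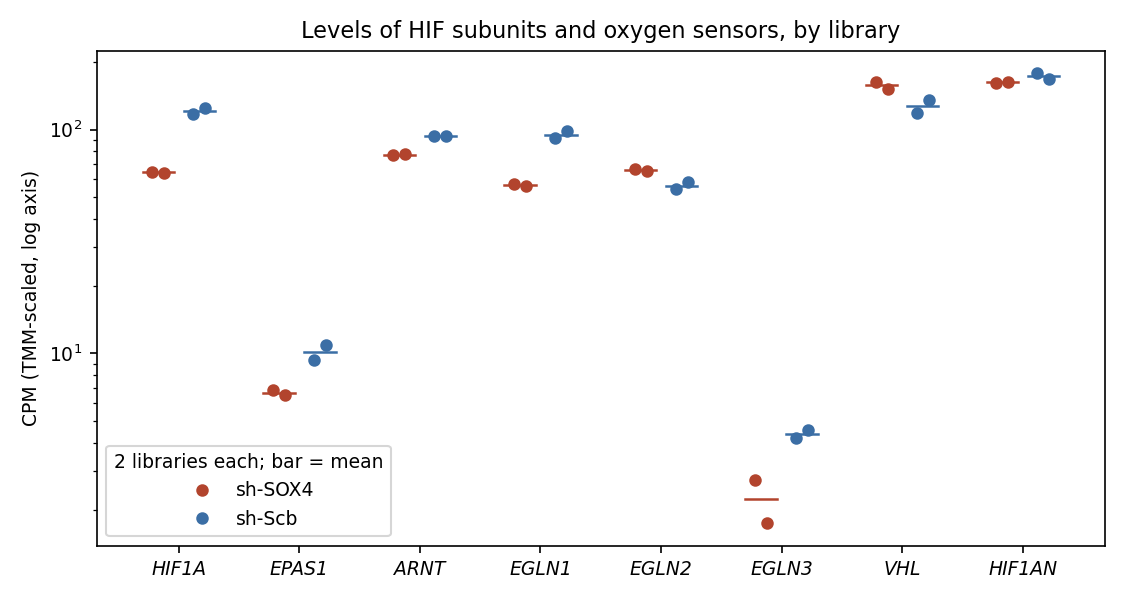
TMM-scaled CPM (log axis) of the 8 tested genes in each of the 2 sh-SOX4 and 2 sh-Scb libraries, with bars at group means. HIF1A lies at 64.2 and 64.6 CPM in sh-SOX4 and at 117 and 125 CPM in sh-Scb, while HIF1AN lies between 162 and 178 CPM in all 4. The EGLN2 points are its own row, without RAB4B-EGLN2.

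HIF1A, the main alpha subunit in most cells, lies on chromosome 14 (61695513 to 61748259 on GRCh38, ENSG00000100644). Its counts were 2048 and 1912 in the sh-SOX4 libraries, against 4427 and 3773 in the sh-Scb libraries. Its level was 64.6 and 64.2 CPM in sh-SOX4 and 117 and 125 CPM in sh-Scb. Both sh-SOX4 libraries were at about the same level and both lay far below the lower control. The means were 64.4 ± 0.244 CPM in sh-SOX4 and 121 ± 5.78 CPM in sh-Scb (SD, n = 2 each). The log2 fold change was -0.91 (SE 0.055), with an edgeR adjusted p of 9.22e-07, which corresponds to 53.2% of the sh-Scb level with a 95% interval of 48.8% to 57.9%. Of all tested IDs, 9.98% had a lower log2 fold change.

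A noncoding RNA transcribed from the opposite strand of the HIF1A locus, HIF1A-AS3 (ENSG00000258667, named HIF1A-AS2 in GENCODE release 29), was also lower. It had 4 and 3 counts in the sh-SOX4 libraries, against 25 and 23 in the sh-Scb libraries. Its log2 fold change was -2.60 (SE 0.59), with an edgeR adjusted p of 0.00519, on counts too low for a precise fold. Its annotated exons share no base with HIF1A exons, but the use of strand in counting is not stated, so reads from unspliced HIF1A RNA cannot be told apart from it. HIF1A-AS1, which shares 2.27% of HIF1A exonic bases, had 0 and 0 counts in sh-SOX4 and 0 and 3 in sh-Scb.

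EPAS1, the alpha subunit best known from endothelium and from erythropoietin control, lies on chromosome 2 (46293667 to 46386703, ENSG00000116016). It was far less abundant, at 6.87 and 6.52 CPM in the sh-SOX4 libraries and 9.31 and 10.9 CPM in the sh-Scb libraries. The groups did not overlap, and the controls differed more from each other than the sh-SOX4 libraries did. EPAS1 fell to 66.3% of the sh-Scb level, and its 95% interval ran from 52.3% to 84.1%. This is a log2 fold change of -0.59 (SE 0.15; edgeR adjusted p = 0.0102). Without sh-Scb replicate 2 the log2 fold change was -0.48 and the adjusted p 0.0680, in a range of 0.00393 to 0.0680 over all alternatives. In bulk samples, fewer cells that express a gene and less RNA per cell cannot be told apart.

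HIF3A, an alpha subunit with splice forms that act as inhibitors, had 2 and 0 counts in the sh-SOX4 libraries and 4 and 2 in the sh-Scb libraries. These counts lie near or under the limit of 3 counts per library, 0.0946 and 0.101 CPM in sh-SOX4 and 0.0794 and 0.0996 CPM in sh-Scb, so a difference was not detectable at this depth. HIF3A did not pass the filter and no fold is given. Such limits cover counting error only, whereas the intervals given for fold changes come from the fit and include the spread between libraries.

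ARNT, the partner that every alpha subunit needs to bind DNA, lies on chromosome 1 (150809705 to 150876768, ENSG00000143437). Its level was 76.6 and 77.7 CPM in the sh-SOX4 libraries and 93.8 and 93.8 CPM in the sh-Scb libraries. The libraries of each group were nearly identical, with means of 77.2 ± 0.764 CPM in sh-SOX4 and 93.8 ± 0.0202 CPM in sh-Scb (SD, n = 2 each). ARNT fell to 82.3% of the sh-Scb level, and its interval ran from 76.0% to 89.0%. On the log2 scale it fell by 0.28 (SE 0.051), with an edgeR adjusted p of 0.00129. This was a smaller fall than that of HIF1A, whose interval lies wholly below that of ARNT.

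EGLN1, the main prolyl hydroxylase that marks HIF1A in oxygenated cells and itself a HIF-induced gene, lies on chromosome 1 (231363751 to 231425044, ENSG00000135766). Its counts were 1821 and 1674 in sh-SOX4, against 3454 and 2967 in sh-Scb. The level was 57.4 and 56.2 CPM in the sh-SOX4 libraries and 91.4 and 98.5 CPM in the sh-Scb libraries. Every sh-SOX4 library was thus well below every control. EGLN1 fell to 59.9% of the sh-Scb level (interval 54.7% to 65.6%). On the log2 scale this was -0.74 (SE 0.059), with an edgeR adjusted p of 5.46e-06. A processed pseudogene copy, EGLN1P1, had 1 and 1 counts in sh-SOX4 and 9 and 6 in sh-Scb, few beside those of EGLN1. The copies EGLN3P1 and HIF1AP1 had at most 4 counts in any library.

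EGLN3, a paralog that HIF induces strongly in many cells and that lies on chromosome 14 (33924231 to 34462774, ENSG00000129521), was scarce. It had 86 and 52 counts in the sh-SOX4 libraries, against 158 and 137 in the sh-Scb libraries. In CPM this was 2.71 and 1.75 in sh-SOX4 and 4.18 and 4.55 in sh-Scb. The groups did not overlap, but the sh-SOX4 libraries differed from each other by more than those of any other called gene in the set did relative to their mean. EGLN3 fell to 51.3% of the sh-Scb level, and the interval was wide, from 34.4% to 76.3%. The log2 fold change was -0.96 (SE 0.26), with an edgeR adjusted p of 0.0119. Leaving out sh-SOX4 replicate 2 gave a log2 fold change of -0.69 and an adjusted p of 0.0693, in a range of 0.00228 to 0.0693 over all alternatives.

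EGLN2, the third prolyl hydroxylase, is not known as a gene that HIF induces. It lies on chromosome 19 (40798996 to 40808433, ENSG00000269858). Its own row held 67.0 and 65.4 CPM in the sh-SOX4 libraries and 54.0 and 58.3 CPM in the sh-Scb libraries. The log2 fold change was 0.24 (SE 0.063), with an edgeR adjusted p of 0.0120, so that EGLN2 was called higher at 118% of the sh-Scb level (interval 107% to 130%). The call was lost at an adjusted p of 0.0538 without sh-SOX4 replicate 1, 0.0636 without sh-Scb replicate 1 and 0.105 with library totals. Over all alternatives the adjusted p ranged from 0.00441 to 0.485.

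The highest of these came when the counts of overlapping genes were added to the EGLN2 row. RAB4B-EGLN2, a read-through gene that joins RAB4B and EGLN2, covers 30.6% of the exonic bases of EGLN2. Its row held 7 and 166 counts in the sh-SOX4 libraries and 522 and 205 in the sh-Scb libraries. The sh-SOX4 libraries thus differed many-fold and the sh-Scb libraries less, while the EGLN2 rows of each group were close. RAB4B-EGLN2 did not pass the test, with a log2 fold change of -1.85 (SE 1.64) and an edgeR adjusted p of 0.480. Both rows together came to 67.2 and 71.0 CPM in the sh-SOX4 libraries and 67.8 and 65.1 CPM in the sh-Scb libraries, and these groups overlapped. With the rows summed before the fit, the log2 fold change of EGLN2 was 0.06, with an edgeR adjusted p of 0.485. A change of EGLN2 and a different division of reads between both rows cannot be told apart here. Only 2012 of the 3088 exonic bases of RAB4B-EGLN2 are shared with EGLN2, so the sum can also hold reads from outside EGLN2. RAB4B, the upstream gene of the pair, fell by 0.55 on the log2 scale (SE 0.12), with an edgeR adjusted p of 0.00411.

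**Figure D2:**
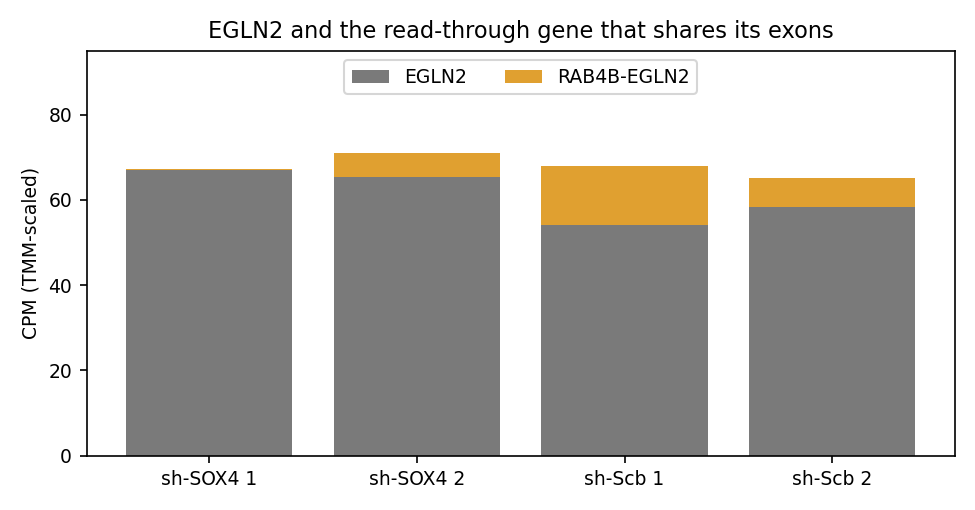
TMM-scaled CPM of the EGLN2 row (grey) and, stacked on it, of the RAB4B-EGLN2 row (yellow) in each library. The stacks end between 65.1 and 71.0 CPM in all 4 libraries, while the yellow part ranges from 0.221 to 13.8 CPM.

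VHL (ENSG00000134086, chromosome 3), the receptor that recognises hydroxylated alpha subunits, was the only gene of the set whose higher call rested on no shared exon. Its counts were 5168 and 4538 in the sh-SOX4 libraries, against 4490 and 4079 in the sh-Scb libraries. The level was 163 and 152 CPM in sh-SOX4 and 119 and 135 CPM in sh-Scb. The groups did not overlap, although the controls differed from each other by nearly as much as the higher control did from the lower sh-SOX4 library. VHL rose to 124% of the sh-Scb level, and its interval ran from 112% to 138%. On the log2 scale it rose by 0.31 (SE 0.067), with an edgeR adjusted p of 0.00443. The VHL-like retrogene VHLL had 5 and 0 counts in sh-SOX4 and 2 and 2 in sh-Scb.

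HIF1AN, the asparagine hydroxylase, lies on chromosome 10 (100529072 to 100559998, ENSG00000166135). Its level was 162 and 164 CPM in the sh-SOX4 libraries and 178 and 168 CPM in the sh-Scb libraries. Its log2 fold change of -0.09 (SE 0.048) did not pass, with an edgeR adjusted p of 0.169. The interval ran from 87.3% to 101% of the sh-Scb level. Under library totals it was called lower at -0.19 (edgeR adjusted p = 0.00978), and with a filter of 10 CPM at -0.15 (edgeR adjusted p = 0.0153). NDUFB8, a gene on the opposite strand, shares 2.33% of the exonic bases of HIF1AN. It was itself called higher, with a log2 fold change of 0.38 (SE 0.094) and an edgeR adjusted p of 0.00846. With the counts of overlapping genes added, the log2 fold change was 0.00839 and thus turned sign (edgeR adjusted p = 0.901, the highest over all alternatives). All counts of those genes were added, also from outside the shared bases, so this sum does not isolate HIF1AN.

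**Figure D3:**
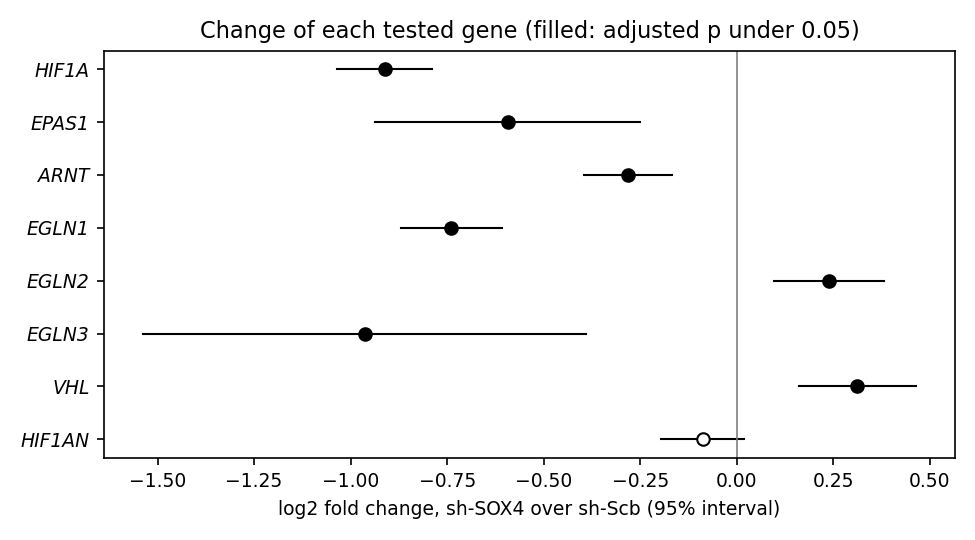
Log2 fold change of sh-SOX4 over sh-Scb for the 8 tested genes, with 95% intervals from the fitted model and filled points for genes called at an adjusted p under 0.05. HIF1A, EPAS1, ARNT, EGLN1 and EGLN3 lie below 0, VHL and EGLN2 above it, and the interval of HIF1AN spans 0. The EGLN2 point is for its own row, and its call is lost with RAB4B-EGLN2 added.

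Levels of different genes were compared per kilobase of annotated exon (CPM per kb, RPKM). In sh-SOX4 cells VHL led with 37.4 ± 1.76 RPKM, followed by HIF1A at 12.5 ± 0.0474, ARNT at 11.8 ± 0.117, HIF1AN at 11.7 ± 0.0938, EGLN2 at 10.1 ± 0.172 and EGLN1 at 7.82 ± 0.115 RPKM (SD, n = 2). In sh-Scb cells VHL also led with 30.2 ± 2.80 RPKM, followed by HIF1A at 23.5 ± 1.12, ARNT at 14.4 ± 0.00310, EGLN1 at 13.1 ± 0.696, HIF1AN at 12.4 ± 0.549 and EGLN2 at 8.54 ± 0.458 RPKM (SD, n = 2). EPAS1 and EGLN3 came last of the tested genes in both groups, at 0.917 and 0.303 RPKM in sh-SOX4 and 1.39 and 0.593 RPKM in sh-Scb. In sh-Scb the libraries of EGLN1 and HIF1AN overlapped, so that their order is not fixed.

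HIF1A stood clearly above ARNT in sh-Scb, whereas in sh-SOX4 both were at nearly the same level. The order depends on the exon length used. With exons of the basic annotation only, EGLN2 is 3023 bases long in place of 6577, and it came next after VHL in sh-SOX4 at 21.9 RPKM, while in sh-Scb it stood at 18.6 RPKM beside ARNT at 19.0 RPKM, with overlapping libraries. ARNT, at 15.6 RPKM, then stood just above HIF1A, at 15.1 RPKM, in sh-SOX4, and VHL led in both groups.

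Ratios of several partners and regulators to HIF1A were higher in sh-SOX4, where HIF1A itself fell to 53.2% of the sh-Scb level. A gene with an unchanged level would therefore also show a higher ratio. ARNT itself fell to 82.3% of the sh-Scb level and HIF1AN did not pass, so their higher ratios reflect the larger fall of HIF1A. For each HIF1A transcript per kb there were 3.09 and 2.90 of VHL in the sh-SOX4 libraries, against 1.24 and 1.32 in the sh-Scb libraries. The ratio of ARNT was 0.938 and 0.956 in sh-SOX4 and 0.633 and 0.592 in sh-Scb, and that of HIF1AN 0.925 and 0.941 in sh-SOX4 and 0.563 and 0.494 in sh-Scb. The ratio of EGLN1 was closer between the groups, 0.630 and 0.621 in sh-SOX4 and 0.553 and 0.558 in sh-Scb. For the 3 EGLN genes summed it was 1.47 and 1.44 in sh-SOX4 and 0.940 and 0.947 in sh-Scb. These ratios are descriptions, since an exact permutation test of 2 against 2 libraries cannot give a two-sided p below 0.333.

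**Figure D4:**
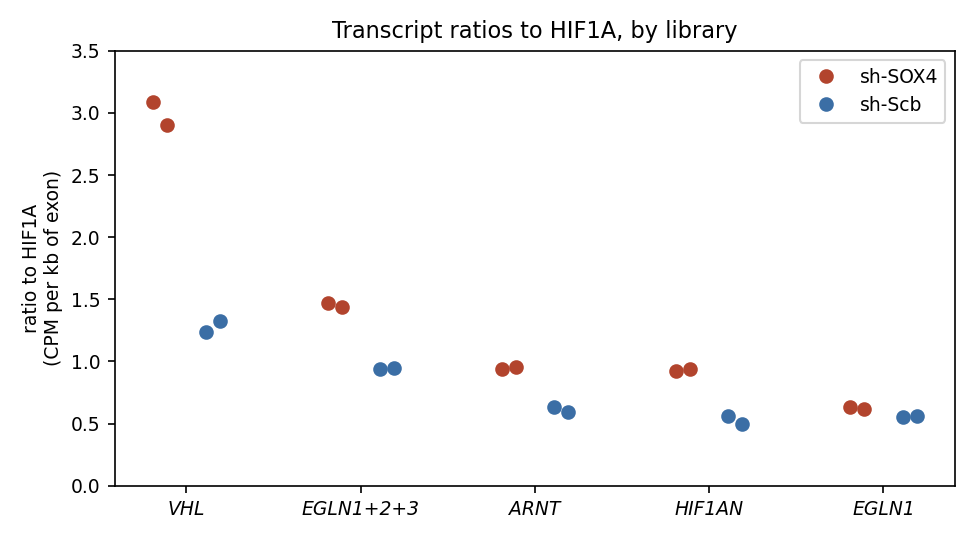
Ratio to HIF1A of VHL, the 3 EGLN genes summed, ARNT, HIF1AN and EGLN1, in CPM per kb of exon, in each of the 2 sh-SOX4 and 2 sh-Scb libraries. VHL stands at 2.90 and 3.09 in sh-SOX4 and at 1.24 and 1.32 in sh-Scb. Of the 5 ratios plotted that of EGLN1 differs least between the groups. Because HIF1A fell in sh-SOX4, an unchanged gene would also show a higher ratio there.

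Within the alpha subunits the balance was similar in both groups, since HIF1A made up 93.0% and 93.3% of their summed RPKM in the sh-SOX4 libraries and 94.6% and 94.2% in the sh-Scb libraries. Within the EGLN family it differed. The share of EGLN1 was 42.8% and 43.2% in sh-SOX4 and 58.9% and 58.8% in sh-Scb. EGLN2 made up 55.2% and 55.5% in sh-SOX4 and 38.5% and 38.5% in sh-Scb. With basic exon lengths the shares of EGLN1 were 26.3% and 26.5% in sh-SOX4 and 40.7% and 40.7% in sh-Scb, so EGLN2 led in both groups on that scale. EGLN3 stayed under 3% in every library with either length. These shares use the EGLN2 row alone.

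The genes whose pattern over the 4 libraries lay closest to HIF1A were OPN3, DPYSL2 and APAF1, with Euclidean distances of 0.0280, 0.0333 and 0.0398 between centred log2 CPM values. OPN3 was at 6.05 and 6.11 CPM in sh-SOX4 and 11.5 and 12.5 CPM in sh-Scb. DPYSL2 was at 87.8 and 89.0 CPM in sh-SOX4 and 159 and 168 CPM in sh-Scb. EGLN3 had the largest fitted change among the called genes of the set (-0.96), but its interval includes the value of HIF1A (-0.91), and without sh-SOX4 replicate 2 it was -0.69. The genes closest to EGLN3 were SLC41A2, CCNO and ZNF738, at 0.0714, 0.0976 and 0.0990. In all, 334 of 10964 protein-coding genes lay within 0.2 of HIF1A, and 14 of 10965 within 0.2 of EGLN3. EGLN3 itself, at a mean log2 CPM of 1.76, was under the limit of 2 set for those genes. Its sh-SOX4 libraries differed, at 2.71 and 1.75 CPM, so both counts do not rank how common the patterns are.

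Partners of VHL in its ubiquitin ligase were read next, from lists of pathway genes chosen with earlier results of these data known. Of 6 listed, 3 rose, 1 fell and 2 did not pass, with a median log2 fold change of 0.22. Thus 66.7% were called, against 44.1% of all tested IDs. The adaptor ELOC rose by 0.37 (SE 0.086), the scaffold CUL2 by 0.19 (SE 0.050) and UBE2M, which loads NEDD8 onto cullins, by 0.25 (SE 0.059), with edgeR adjusted p-values of 0.00560, 0.0108 and 0.00628. NEDD8, the small modifier that activates cullin ligases, fell to 22.9 and 21.7 CPM in the sh-SOX4 libraries, against 49.8 and 41.7 CPM in the sh-Scb libraries. Its log2 fold change was -1.04 (SE 0.10), with an edgeR adjusted p of 2.30e-05. ELOB and RBX1 did not pass, with log2 fold changes of 0.25 and 0.14. The count of called partners was 4 and became 2 with library totals.

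Of 18 coactivators and stability modulators listed, 17 were found and tested. Of these, 5 rose, 3 fell and 9 did not pass, with a median of 0.02. The share called, 47.1%, was close to the 44.1% of all tested IDs. The chaperones HSP90AA1 and HSP90AB1, which stabilise HIF1A independently of oxygen, rose by 1.21 (SE 0.039) and 1.38 (SE 0.037) on the log2 scale. HSP90AA1 was at 2962 and 2923 CPM in sh-SOX4 and 1308 and 1234 CPM in sh-Scb. CREBBP, an acetyltransferase that HIF recruits, rose by 0.48 (SE 0.066), while its paralog EP300 did not pass (log2 fold change 0.02). The deubiquitinase USP20 rose by 0.34 (SE 0.043). Adjusted p-values of these 4 rises ran from 1.05e-08 for HSP90AB1 to 0.000208 for CREBBP in edgeR's test. Besides HIF1A-AS3, ING4 fell by 0.50 and OS9 fell by 0.13, the last with an edgeR adjusted p of 0.0486.

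Among 12 relatives of the bHLH-PAS family, to which HIF1A and ARNT belong, 8 were tested, of which 2 rose, 1 fell and 5 did not pass. The median was -0.01, and 37.5% were called, below the 44.1% of all tested IDs. BMAL1, the clock partner related to ARNT, fell to 31.3 and 32.1 CPM in the sh-SOX4 libraries, against 45.1 and 45.6 CPM in the sh-Scb libraries, with a log2 fold change of -0.51 (SE 0.076). CLOCK rose by 0.42 (SE 0.073) and BMAL2 by 0.37 (SE 0.066). ARNT2, the paralog that can replace ARNT, had 0 and 2 counts in sh-SOX4 and 0 and 5 in sh-Scb and was not tested. AHR, another partner of ARNT, had 4 and 2 counts in sh-SOX4 and 0 and 0 in sh-Scb, and NPAS3 and SIM1 had none in any library.

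Of 14 other oxygen-dependent hydroxylases and dioxygenases, 11 were tested, of which 5 rose, 2 fell and 4 did not pass, with a median of 0.22. Called genes made up 63.6%, against 44.1% of all tested IDs. P4HA1, the collagen prolyl hydroxylase subunit, moved most, with 1496 and 1312 counts in sh-SOX4 and 11893 and 9068 in sh-Scb and a log2 fold change of -2.75 (SE 0.054). PLOD3, a lysyl hydroxylase, fell by 0.36 (SE 0.12). RIOX2, a ribosomal oxygenase, rose by 1.37 (SE 0.064), OGFOD1 by 0.57 (SE 0.060) and RIOX1 by 0.33 (SE 0.087). P4HTM, the prolyl hydroxylase of the endoplasmic reticulum, had 5 and 8 counts in sh-SOX4 and 6 and 2 in sh-Scb and was not tested, nor were CDO1 and PLOD2. ADO, an oxygen-sensing thiol dioxygenase, was tested and had a log2 fold change of 0.01, with an edgeR adjusted p of 0.961. The number called, 7, was 4 without sh-SOX4 replicate 1, 4 without sh-Scb replicate 1, 4 with no filter and 4 with DESeq2.

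The EGLN enzymes consume 2-oxoglutarate and are inhibited by succinate and fumarate, so the enzymes of these metabolites were listed. Of 18, 9 rose, 4 fell and 5 did not pass, with a median of 0.15. By share 72.2% were called, against 44.1% of all tested IDs. SDHB, the iron-sulfur subunit of succinate dehydrogenase, rose to 82.7 and 80.3 CPM in the sh-SOX4 libraries, against 54.5 and 48.9 CPM in the sh-Scb libraries, a log2 fold change of 0.66 (SE 0.066). IDH3B rose by 0.52 (SE 0.054), SUCLA2 by 0.64 (SE 0.068) and SUCLG2 by 0.55 (SE 0.061). The catalytic subunit SDHA fell by 0.41 (SE 0.052), and IDH1, IDH2 and GLUD1 fell by 0.22, 0.24 and 0.20. Adjusted p-values of these 8 genes in edgeR's test ran from 2.90e-05 for SDHB to 0.00699 for IDH1.

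Target genes of HIF form the readout of the pathway. Of 38 listed, 37 were tested, of which 30 fell, 1 rose and 6 did not pass, with a median log2 fold change of -1.03. The share called was 83.8%, against 44.1% of all tested IDs, in a list chosen with earlier results of these data known. EGLN1 and EGLN3 are not among the 38. PDK1, a kinase that restrains pyruvate dehydrogenase, was at 58.4 and 54.8 CPM in sh-SOX4 and 234 and 236 CPM in sh-Scb. PFKFB4, a regulator of glycolysis, was at 24.8 and 26.9 CPM in sh-SOX4 and 172 and 158 CPM in sh-Scb, and ALDOC, an aldolase, at 73.1 and 82.9 CPM in sh-SOX4 and 371 and 368 CPM in sh-Scb. With P4HA1, which stands in this list too, these had the smallest adjusted p-values of the list, the largest of them 1.41e-08 for ALDOC in edgeR's test. CA9, a carbonic anhydrase and a classic HIF target, chosen after its values were seen, had 7 and 6 counts in sh-SOX4 and 103 and 114 in sh-Scb.

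TFRC, the transferrin receptor, was the single riser, at 770 and 752 CPM in sh-SOX4 and 412 and 388 CPM in sh-Scb. P4HA2, LOX and SLC2A1 also had positive log2 fold changes, 1.61, 1.06 and 0.13, but did not pass, and P4HA2 and LOX had at most 27 counts in any library. EPO, the erythropoietin gene, had no count in sh-SOX4 and 2 and 4 counts in sh-Scb. The falls of HIF1A and EGLN1, to 53.2% and 59.9%, were thus smaller than those of several targets: PDK1 fell by 2.05 on the log2 scale, and the median target by 1.03.

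**Figure D5:**
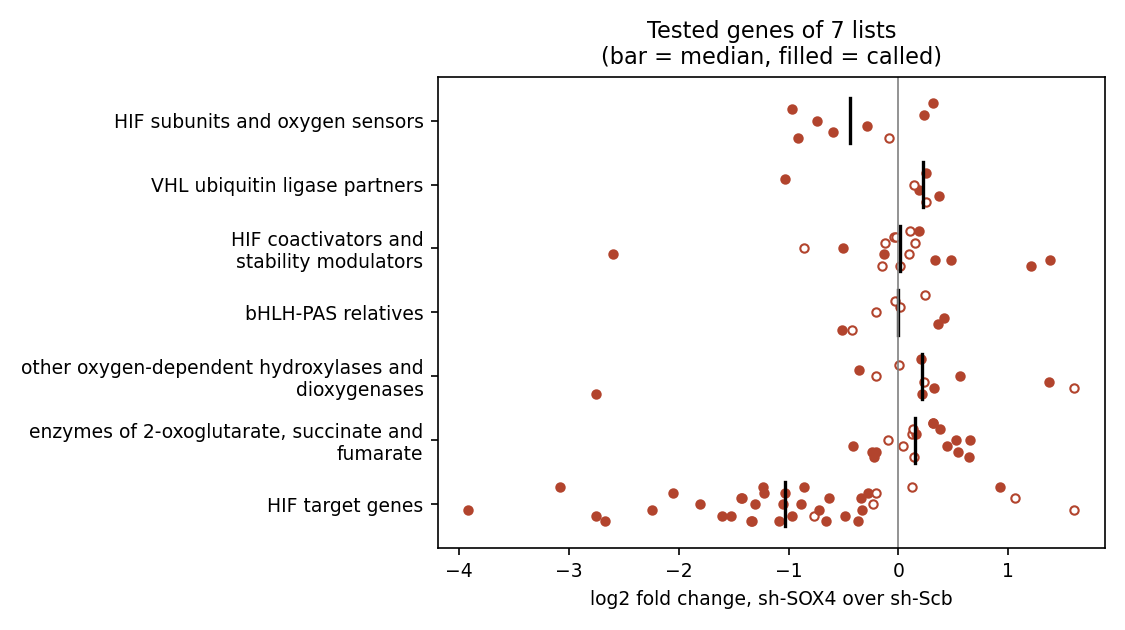
Log2 fold change of sh-SOX4 over sh-Scb for every tested gene of the 7 lists, one point a gene, filled where called, with a bar at each list's median. The medians are -0.44 for HIF subunits and oxygen sensors and -1.03 for HIF target genes, and between -0.01 and 0.22 for the other 5 lists. All 7 lists were chosen with earlier results of these data known.

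Some markers of other cell types moved between the groups, and the marker lists are given beside these falls. The 6 B cell markers summed to 16.7 and 15.1 CPM in sh-SOX4 and 69.4 and 67.4 CPM in sh-Scb, with CD79A making up most of it. Of the 5 tested, 2 were called lower and 1 higher, or 60%, against 44.1% of all tested IDs. The 8 myeloid markers summed to 43.0 and 42.7 CPM in sh-SOX4 and 20.5 and 23.5 CPM in sh-Scb. Of this sum, S100A9 alone was at 23.4 and 23.1 CPM in sh-SOX4 and 4.63 and 3.82 CPM in sh-Scb. Of the 7 tested, 3 were called higher and 1 lower, or 57.1%. CD68 was the marker called lower, CD14, CSF1R and ITGAM did not pass, and LYZ had no count in any library. The 5 fibroblast markers summed to 19.6 and 19.8 CPM in sh-SOX4 and 26.8 and 29.2 CPM in sh-Scb. Of the 2 tested, 1, COL1A1, was called lower, or 50%. The 7 erythroid markers summed to at most 3.28 CPM and the 5 epithelial markers to at most 1.68 CPM in any library. None of the 3 erythroid and 2 epithelial markers tested was called. Few genes of each list were tested, and these shares are not read as results about the markers. The part of the markers in the other results was not tested.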

How the data were processed

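Total RNA (TRIzol) went into Illumina TruSeq RNA libraries, per the labels' protocols. The authors deposited a table of raw counts per Ensembl gene ID, whole numbers and not normalized, with a column per library. HISAT2 2.2.0, StringTie and hg38 are named in the submitters' processing notes. The sources used here do not give their roles, the annotation release, the strand setting or filters. Control columns are named NC and were taken as the sh-Scb libraries, since the other columns name SOX4 and the replicate numbers match.

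A symbol was found for 56105 of 64252 IDs, and coordinates and exon lengths came from GENCODE release 29 (GRCh38, also called hg38). In edgeR 4.0.16, filterByExpr kept IDs by a minimum count of 10 and a minimum total of 15. Kept counts were TMM-normalized and fitted by group with the robust quasi-likelihood model in R 4.3.3, with 2 residual degrees of freedom. Adjustment (Benjamini-Hochberg) ran over all 19897 IDs tested. The SE is the size of the log2 fold change divided by the square root of F, and intervals use the t distribution of the moderated fit. The test was checked on simulated data. Libraries of a group were not duplicates: chi-square values of genes had medians of 1.59 in sh-SOX4 and 1.70 in sh-Scb, against 0.455 for sampling alone.

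The 9 genes and all lists were chosen with earlier results of these data known. Of each pathway list, the text names the called genes with the 4 smallest adjusted p-values, those under the filter and those moving against most of the list. The nearest patterns were sought among protein-coding genes whose mean log2 CPM was 2 or more, by Euclidean distance after 0.5 was added to CPM. Other genes named were chosen after their values were seen. Alternatives comprised DESeq2 1.42.0, its median-ratio size factors, scaling by library totals, omission of the filter, a filter of 10 CPM in 2 libraries, the replicate number as a block, omission of each library, limma-voom of limma 3.58.1 and summing of overlapping genes. Figures were drawn with matplotlib 3.10.9.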

Additional observations from a re-analysis of the deposited data

How the results depend on the processing

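HIF1A, ARNT, EGLN1 and VHL kept their direction and their call under every alternative. The log2 fold change ranged from -0.96 to -0.87 for HIF1A, -0.29 to -0.27 for ARNT, -0.79 to -0.69 for EGLN1 and 0.22 to 0.40 for VHL when each library was left out. In those fits, where a lone library is assumed to vary like the other group, EPAS1 ranged from -0.70 to -0.48, EGLN3 from -1.31 to -0.69, EGLN2 from 0.19 to 0.29 and HIF1AN from -0.14 to -0.04. EGLN2 lost its call with library totals (0.14) and with overlapping genes summed (0.0553). HIF1AN was called with library totals (-0.19) and at 10 CPM (-0.15), and turned to 0.00839 with overlapping genes summed. Most reads added there were those of the opposite-strand gene NDUFB8, itself called higher. EPAS1 and EGLN3 gave no value at 10 CPM. HIF3A was tested only with no filter, with an edgeR adjusted p of 0.670.

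Of the 9 genes, 7 were called, against 44.1% of all tested IDs. With overlapping genes summed 6 were called, against 8779 of 19894 tested IDs. At 10 CPM 6 were also called, HIF1AN among them, while EPAS1 and EGLN3 did not pass that filter. The background was larger there, with 7149 of 10797 tested IDs called. All calls numbered 8775 and ranged from 7467 to 8294 with a library left out. With library totals the median change over all tested IDs was -0.11 in place of -0.01 (log2), and 40.8% of calls were higher in place of 52.5%. The ligase partners called numbered 2 with library totals and ranged from 3 to 5 with a library left out. The other hydroxylases called numbered 4 with no filter, 4 with DESeq2 and 4 to 6 with a library left out, against 7. The causes were not tested beyond what each alternative changes by construction.

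Same-numbered libraries showed no shared deviation from their group means (correlation -0.01 across IDs), so the replicate block is given only here: it left 8378 calls, 7 of the 9 genes among them, with HIF1A at -0.91. HIF3A was too low for a difference to be detected at this depth, and EGLN3 and EPAS1, the least abundant genes tested, had the widest intervals.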
